A study of Mus musculus with 24 samples.

Results

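The imprinted growth genes are 10 mouse genes, taken by name from the deposited gene count table: H19, Igf2, Dlk1, Meg3, Peg3, Plagl1, Grb10, Mest, Gnas and Igf2r. All 10 were found among the 55487 distinct genes of the table, and all 10 were among the 23059 that passed the filter on low counts. The study profiled messenger RNA in 24 libraries of LSK cells, the marrow or liver fraction that lacks lineage markers and carries SCA1 and KIT and that holds blood stem cells and early progenitors. The design text describes the sorted cells more broadly, as lineage-negative KIT-positive progenitors. There were 6 groups of 4 libraries, described as biological replicates. P0 WT and P0 ME E10.5 came from the liver of newborn mice at postnatal day 0. P28 WT, P28 ME E10.5, P28 ME P0 and P28 RLT Vav Txp came from bone marrow at postnatal day 28. ME stands for a human MLL::ENL fusion, a leukaemia oncogene, carried as a transgene in a Tet-off model and induced at embryonic day E10.5 or at P0 as the group name says. P28 RLT Vav Txp also carries ME induced at E10.5, and each of its libraries is titled with an animal code. The labels spell out neither RLT nor Txp, and the driver of the transgene is not given in the sources used here. Every P0 library is from liver and every P28 library from marrow, so age and tissue cannot be told apart, and "age" below means both.

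Imprinted genes are transcribed mainly from the copy inherited from a given parent, and the choice is held by DNA methylation of control regions set in the germ line. Many of them form a network that sets fetal growth. Paternally expressed members tend to promote growth and maternally expressed members tend to restrain it, and much of the network is switched down in the weeks after birth. In blood stem cells the H19-Igf2 and Dlk1-Meg3 regions have been linked to quiescence and to fetal growth signalling. Bulk counts hold no information on which parental copy was read.

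Levels are given as CPM, read counts scaled to a library of fixed size after TMM scaling, in the order of libraries 1, 2, 3 and 4 of a group. Fold changes, standard errors (SE) and adjusted p come from the edgeR quasi-likelihood test on all 24 libraries, with Benjamini-Hochberg adjustment over all 23059 genes. A gene was called at an adjusted p under 0.05. Library totals ran from 31233688 to 89774511 counts, so a library with 0 reads of a gene allows up to 0.0333 to 0.0924 CPM, depending on its depth, in counting error alone. In bulk samples, fewer cells of a type and less RNA per cell cannot be told apart.

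Before the results, the libraries differed in their cell markers. The 10 LSK markers, Kit and Ly6a among them, were read in every group. The libraries numbered 1 of both P0 groups stood apart from the other 6 P0 libraries: their 8 erythroid markers summed to 657 and 269 CPM against 5341 to 17832, and their 8 macrophage markers to 104 and 77.1 CPM against 1056 to 1490. They did not match in 7 mast cell markers, which summed to 10711 CPM in P0 WT library 1, against 912 to 2098 in the other P0 WT libraries, and to 47.2 CPM in P0 ME E10.5 library 1, against 199 to 813. The 12 libraries of P28 WT, P28 ME E10.5 and P28 ME P0 held 180 to 764 CPM of erythroid, 17.0 to 55.7 CPM of macrophage, 7.82 to 29.5 CPM of mast cell and 26.3 to 61.5 CPM of 5 megakaryocyte markers. The P28 RLT Vav Txp libraries held 537 to 2350 CPM of macrophage markers and 2396 to 3408 CPM of LSK markers, below the 4568 to 5718 CPM of the other P28 libraries. They also held 1121 to 2409 CPM of erythroid, 56.6 to 144 CPM of mast cell and 195 to 370 CPM of megakaryocyte markers, all above the other P28 libraries. Of the 10 LSK markers, this group had 3 called lower than P28 WT (Cd34, Flt3 and Hlf) and 1 called higher (Slamf1). Flt3 averaged 222 CPM against 1175 CPM in P28 WT, and Kit 805 CPM against 688 CPM. LSK sums at P0 were highest in the libraries numbered 1, at 4870 CPM in WT and 5339 CPM in ME E10.5, against 2494 to 3726 CPM in the others. The hepatocyte list was lowest in the same 2, at 217 and 228 CPM, against 358 to 773 CPM in the other P0 libraries. It summed to 174 to 256 CPM in the 3 other P28 groups and 285 to 722 CPM in P28 RLT Vav Txp. Albumin (Alb) itself averaged 33.2 and 49.2 CPM in the P0 groups, 0 CPM in P28 ME E10.5 and 1.32 CPM in P28 RLT Vav Txp. In P28 RLT Vav Txp, Trf of the same list averaged 501 CPM. Trf was the only gene of the list called higher there than in P28 WT, and 0 were called lower.

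From newborn liver at P0 to marrow at P28, Dlk1, Meg3 and H19 fell in both genotypes. In WT, 4 of the 10 members were called lower (H19, Dlk1, Meg3 and Grb10) and 0 higher. Of all genes tested, 4.56% were called lower and 3.12% higher in this comparison. The median log2 fold change of the members was -2.86, against -0.07 over all genes. In ME E10.5, 5 members were called lower (H19, Dlk1, Meg3, Igf2 and Mest) and 0 higher, where 8.45% of all genes were called lower and 9.79% higher. The members' median was -3.20 and that of all genes -0.18. In WT, 4 members had every P28 library below every P0 library, as had 4.38% of all genes, and in ME E10.5 there were 6, against 11.0% of all genes. Marker lists of other cells were called lower in the same comparisons: all 8 macrophage and 7 of 8 erythroid markers in both genotypes, 6 of 7 mast cell and 6 of 10 hepatocyte markers in WT, and 5 of 7 and 9 of 10 in ME E10.5. Their part in the falls below was not tested. Leaving out both P0 libraries numbered 1, as done below, removed the lowest erythroid, macrophage and hepatocyte sums of P0 and does not test it. The 2 age comparisons share no library. The split of calls over all genes depends on the scaling: 40.6% of those in WT were higher, and 56.8% with plain library totals, while in ME E10.5 the share was 53.7%, and 42.8% with DESeq2.

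**Figure D1:**
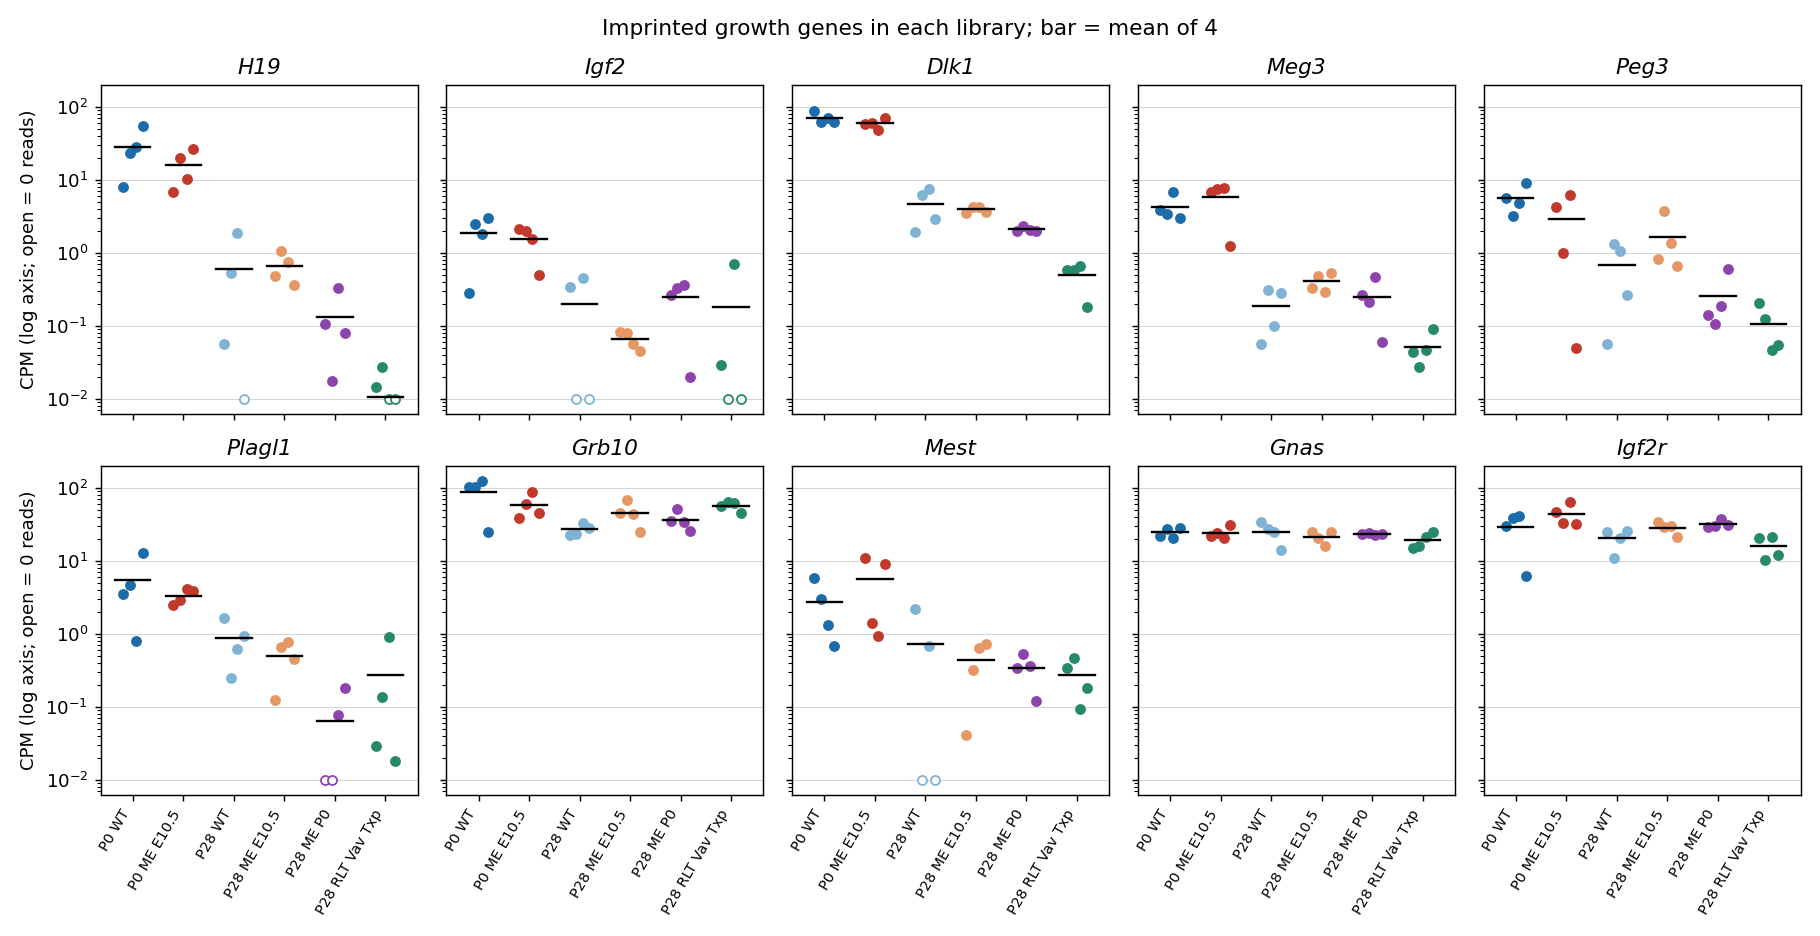
Each panel shows 1 gene, with CPM on a log axis and 1 point per library, grouped by age, genotype and induction; the black bar is the mean of 4 libraries and an open point has 0 reads. Dlk1 sits between 47.3 and 88.2 CPM in the 8 P0 libraries and at or below 7.39 CPM in every P28 library, while Gnas lies between 14.1 and 34.1 CPM throughout.

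Dlk1 and Meg3 are neighbours on chromosome 12 under the control of 1 imprinted region. Dlk1 encodes a paternally expressed transmembrane protein related to the Notch ligands (ENSMUSG00000040856, GRCm38 chr12:109452823-109463336, plus strand). Meg3 is a maternally expressed long noncoding RNA (ENSMUSG00000021268, GRCm38 chr12:109541001-109571726, plus strand). Their upstream sequences are shown because both genes fell together. They are the 250 bases before a start site in RefSeq's GRCm38.p6 table, on the plus strand, and for Meg3 the farther upstream site was taken. Each CpG, the dinucleotide that is methylated at imprinted regions, is in capitals. The windows are chr12:109452573-109452822 for Dlk1 and chr12:109540746-109540995 for Meg3.
Dlk1: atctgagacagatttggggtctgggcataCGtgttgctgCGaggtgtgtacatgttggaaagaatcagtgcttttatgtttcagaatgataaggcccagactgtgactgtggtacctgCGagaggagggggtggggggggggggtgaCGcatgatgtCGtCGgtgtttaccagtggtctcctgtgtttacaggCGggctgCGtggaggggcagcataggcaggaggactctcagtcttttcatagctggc
Meg3: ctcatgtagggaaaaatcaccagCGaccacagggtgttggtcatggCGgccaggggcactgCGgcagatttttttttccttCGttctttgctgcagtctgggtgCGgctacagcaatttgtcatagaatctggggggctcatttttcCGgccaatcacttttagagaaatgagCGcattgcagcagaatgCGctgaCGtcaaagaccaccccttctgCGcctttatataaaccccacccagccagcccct
The Dlk1 window holds 8 CpG and the Meg3 window 10, against a median of 6 over the 32851 promoters of the table. Of those promoters 43.0% hold at least 8 and 37.8% at least 10. On either strand, the Meg3 window has the cyclic AMP response element TGACGTCA starting 57 bases upstream of the start site and overlapping TATA boxes (TATAAA) starting 29 and 25 bases upstream. The former is present in 1.55% of all promoters and the latter in 12.4%. The Dlk1 window has neither, nor the GC box GGGCGG, which 32.7% of promoters hold. The window at the other Meg3 start site, chr12:109545148-109545397, holds 0 CpG and neither of these elements.

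Dlk1 was read at 88.2, 61.8, 69.7 and 61.1 CPM in newborn WT and at 58.7, 59.8, 47.3 and 69.8 CPM in P0 ME E10.5. In P28 WT it was at 1.93, 6.25, 7.39 and 2.92 CPM, and in P28 ME E10.5 at 3.47, 4.30, 4.26 and 3.66 CPM. The lowest P0 library was thus far above the highest P28 library, in both genotypes. The fall from P0 to P28 was -3.92 on the log2 scale in WT (SE 0.35, edgeR adjusted p = 1.92e-07, 15.2-fold) and -3.91 in ME E10.5 (SE 0.35, adjusted p = 2.79e-07, 15.0-fold). The difference between these 2 falls was 0.01 (SE 0.45, edgeR adjusted p = 0.999). Dlk1 in the P0 libraries numbered 1, where erythroid, macrophage and hepatocyte markers were low and mast cell markers differed, was at 88.2 and 58.7 CPM, inside or above the range of the other P0 libraries. Without these libraries the falls were -3.80 and -3.91.

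Meg3 ran at 3.84, 3.43, 6.74 and 3.04 CPM in newborn WT and at 6.81, 7.46, 7.62 and 1.23 CPM in P0 ME E10.5, where library 4 was low. The P28 values were 0.0559, 0.308, 0.0998 and 0.278 CPM in WT and 0.332, 0.475, 0.286 and 0.526 CPM in ME E10.5. All 8 P28 libraries lay below all 8 P0 libraries. In log2 terms Meg3 fell by 4.51 in WT (SE 0.73, edgeR adjusted p = 0.000344) and by 3.83 in ME E10.5 (SE 0.70, adjusted p = 0.000586). Rian, another noncoding RNA of the same maternally expressed domain, was called lower in both: by 2.85 in WT (adjusted p = 0.0379) and by 3.91 in ME E10.5 (adjusted p = 0.00333). The Rian call in WT held in 8 of 16 refits with other settings or 1 library left out. Rtl1, the paternally expressed retrotransposon-derived gene of the domain, was called lower in ME E10.5, where P28 held 0 reads in all 4 libraries and P0 0.0773, 1.15, 0.239 and 0.0494 CPM. In WT, Rtl1 had 0 to 0.302 CPM at P0 and 0.755, 1.85, 0.0499 and 0.0464 CPM at P28, overlapping levels whose difference was not called (log2 2.60, SE 1.57, edgeR adjusted p = 0.361). Rtl1 was also called lower in P28 ME E10.5 than in P28 WT (adjusted p = 0.0129), and the difference between the genotypes' changes with age was not called (0.0600). Dio3, a deiodinase gene of the same domain, averaged 0.143 CPM at P0 and 0.902 CPM at P28 in WT, where 1 library held 2.94 CPM, and 0.291 and 0.0724 CPM in ME E10.5. Neither Dio3 difference was called (adjusted p = 0.359 and 0.409).

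H19 and Igf2 lie side by side on chromosome 7 and share enhancers. Igf2 encodes insulin-like growth factor 2, the main fetal growth ligand, and is paternally expressed (ENSMUSG00000048583, GRCm38 chr7:142650766-142666816, minus strand). H19 is a maternally expressed long noncoding RNA (ENSMUSG00000000031, GRCm38 chr7:142575529-142578143, minus strand). Each is also the host of a microRNA, shown here as RefSeq mature sequences on GRCm38.p6 with the seed, bases 2 to 8, in capitals. Mir675 lies in an exon of H19, with its arms at chr7:142577112-142577133 and chr7:142577078-142577099. Mir483 lies in an intron of Igf2, with its arms at chr7:142654968-142654989 and chr7:142654932-142654952.
miR-675-5p: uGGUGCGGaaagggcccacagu
miR-675-3p: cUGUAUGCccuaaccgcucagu
miR-483-5p: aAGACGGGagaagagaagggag
miR-483-3p: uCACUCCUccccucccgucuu
No seed is shared among these 4. The separate Mir675 entry of the count table held 0 reads over all 24 libraries and the Mir483 entry 3 reads, so the host transcripts alone carry the values below.

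H19 stood at 8.05, 22.9, 28.1 and 54.2 CPM in newborn WT and at 6.71, 20.1, 10.3 and 26.0 CPM in P0 ME E10.5. In P28 WT it was at 0.0559, 0.524, 1.85 and 0 CPM and in P28 ME E10.5 at 0.477, 1.05, 0.757 and 0.366 CPM. The P0 libraries spread widely among themselves, yet the lowest of them was above the highest P28 library. The fall was -5.50 in WT (SE 1.01, edgeR adjusted p = 0.00152, 45.1-fold) and -4.55 in ME E10.5 (SE 0.97, adjusted p = 0.00246, 23.5-fold). With 1 library left out the WT fall ran from -5.00 to -7.32, the latter without P28 WT library 3, and that in ME E10.5 from -4.20 to -4.86. With only the WT groups in the fit the WT fall was -5.47, with an edgeR adjusted p of 0.0515. The lowest P0 values, 8.05 and 6.71 CPM, were those of the libraries numbered 1. These also had the lowest erythroid, macrophage and hepatocyte sums and the highest LSK sums of P0. The falls without them were -5.80 and -4.80.

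Igf2 had few reads: 0.282, 2.51, 1.79 and 2.99 CPM in P0 WT, with 2.10, 2.01, 1.54 and 0.494 CPM in P0 ME E10.5. Its P28 values were 0.335, 0, 0.449 and 0 CPM in WT and 0.0830, 0.0791, 0.0571 and 0.0458 CPM in ME E10.5, the latter from 2 to 6 reads a library. In ME E10.5 the groups did not overlap and the gene was called lower (log2 -4.49, SE 1.53, edgeR adjusted p = 0.0421). That call held in only 1 of 8 refits that left out a library, where the adjusted p ran from 0.0483 to 0.107, and it was also lost without both P0 libraries numbered 1 (adjusted p = 0.0547). In WT the difference was -3.24 (SE 1.43, adjusted p = 0.180), and P0 WT library 1 lay below 2 of the P28 libraries. All 8 P0 libraries were above the low-count filter's minimum of 0.171 CPM for Igf2, as were 2 in P28 WT, 3 in P28 ME P0, 1 in P28 RLT Vav Txp and 0 in P28 ME E10.5. Of its exon bases, 62.8% are shared on the same strand with the predicted gene Gm49394, whose own entry was at 0 in every library.

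Grb10 and Igf2r are the growth-restraining arm of the network. Grb10 encodes an adaptor that damps insulin and IGF receptor signalling (ENSMUSG00000020176, GRCm38 chr11:11930508-12038683, minus strand). Igf2r encodes the receptor that carries IGF2 to the lysosome for degradation (ENSMUSG00000023830, GRCm38 chr17:12682406-12769664, minus strand). The 250 bases upstream of a start site of each are shown, again from RefSeq GRCm38.p6, 5′ to 3′ on the minus strand, with CpG in capitals. The windows are chr11:12037421-12037670 for Grb10, the farther upstream of 2 start sites, and chr17:12769707-12769956 for Igf2r.
Grb10: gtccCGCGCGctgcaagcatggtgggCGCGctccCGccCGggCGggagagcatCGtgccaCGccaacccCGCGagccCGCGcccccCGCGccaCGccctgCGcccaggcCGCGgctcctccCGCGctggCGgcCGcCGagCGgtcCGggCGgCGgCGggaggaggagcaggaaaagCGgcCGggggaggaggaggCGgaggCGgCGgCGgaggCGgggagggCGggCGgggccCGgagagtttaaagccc
Igf2r: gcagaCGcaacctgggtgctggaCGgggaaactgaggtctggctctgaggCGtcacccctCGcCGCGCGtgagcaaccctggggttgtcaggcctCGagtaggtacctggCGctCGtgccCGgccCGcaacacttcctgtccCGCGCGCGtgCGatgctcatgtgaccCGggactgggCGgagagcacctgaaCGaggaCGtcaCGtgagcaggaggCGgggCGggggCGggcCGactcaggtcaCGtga
Grb10 has 40 CpG in this window, as many as or more than which are found in 1.31% of all promoters, and Igf2r has 27 (8.56%). GGGCGG was found 5 times in the former and 3 times in the latter, counting both strands and overlaps. Neither has TATAAA.

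Grb10 was abundant at every age, at 103, 101, 124 and 24.7 CPM in newborn WT and 38.7, 59.2, 87.7 and 44.9 CPM in P0 ME E10.5. Its P28 levels were 22.7, 23.4, 32.8 and 28.5 CPM in WT and 45.0, 67.2, 43.9 and 24.4 CPM in ME E10.5. In WT, 3 of the P0 libraries were far above all P28 libraries and the fourth, library 4, lay among them. The WT fall was called at -1.72 (SE 0.36, edgeR adjusted p = 0.00338, 3.29-fold), and was -1.48 to -2.04 with 1 library left out. In ME E10.5 the groups overlapped and the difference was -0.35 (SE 0.35, adjusted p = 0.517). The difference between the genotypes' changes with age was 1.36 (SE 0.49, edgeR adjusted p = 0.161). Without P0 WT library 4 it was 1.70 with an adjusted p of 0.00956, the only 1 of 16 such refits in which it passed.

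Igf2r was read at 30.4, 38.6, 41.3 and 6.13 CPM in newborn WT, with the same library 4 low, and at 24.8, 10.9, 20.4 and 25.6 CPM in P28 WT. The ME E10.5 libraries were at 47.0, 32.8, 63.5 and 31.7 CPM at P0 and 33.5, 29.2, 30.0 and 21.5 CPM at P28. Groups overlapped in both genotypes. The differences of -0.51 (SE 0.38, edgeR adjusted p = 0.473) and -0.62 (SE 0.38, adjusted p = 0.267) were not called. Gnas encodes the stimulatory G protein alpha subunit and, from other promoters, several imprinted products (ENSMUSG00000027523, GRCm38 chr2:174284320-174346744, plus strand). It kept group means of 24.5 and 24.3 CPM at P0 and 25.1 and 21.4 CPM at P28 in WT and ME E10.5 (SD 3.60, 4.49, 8.30 and 4.05, n = 4 each). The differences with age were 0.03 and -0.18, each with an SE of 0.23. A gene-level count sums all Gnas products, and 22.0% of the gene's exon bases are shared with Nespas and Gm20721 on the opposite strand. The strand setting of the counting is not given in the sources used here.

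Peg3, Plagl1 and Mest are paternally expressed. Peg3 encodes a zinc finger protein (ENSMUSG00000002265, GRCm38 chr7:6703892-6730431, minus strand). Its levels were 5.69, 3.18, 4.78 and 8.97 CPM in newborn WT against 0.0559, 1.32, 1.05 and 0.263 CPM in P28 WT. These groups did not overlap, but the log2 difference of -3.07 was not called (SE 0.99, edgeR adjusted p = 0.0569, and 0.00892 with DESeq2). In ME E10.5 the P0 libraries ranged from 0.0494 to 6.25 CPM and the P28 libraries from 0.663 to 3.76 CPM, and the difference was -0.81 (SE 0.92, adjusted p = 0.582). The Peg3 window upstream of its start also holds GGGGCCCC, a palindrome that the zinc fingers of the Plagl1 protein bind, as do 0.889% of all promoters, and TGACGTCA.

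Plagl1 encodes that zinc finger regulator, a transcription factor known to act on other imprinted genes (ENSMUSG00000019817, GRCm38 chr10:13060504-13131694, plus strand). It was at 3.48, 4.69, 0.788 and 12.9 CPM in newborn WT against 1.65, 0.246, 0.624 and 0.943 CPM in P28 WT, where the groups overlapped through P0 WT library 3. In ME E10.5 it was at 2.47, 2.90, 4.07 and 3.90 CPM at P0 and 0.125, 0.659, 0.771 and 0.458 CPM at P28, without overlap. The differences were -2.66 (SE 1.05, edgeR adjusted p = 0.129) and -2.72 (SE 1.06, adjusted p = 0.0730). The ME E10.5 difference was called with only those groups in the fit (adjusted p = 0.00784) and with DESeq2 (0.0173). These fits called 2516 of 18777 and 3155 of 23059 genes lower.

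Mest encodes a hydrolase-fold protein of the endoplasmic reticulum (ENSMUSG00000051855, GRCm38 chr6:30723547-30748465, plus strand). Its intron holds Mir335, with arms at chr6:30741314-30741336 and chr6:30741354-30741375 and no shared seed.
miR-335-5p: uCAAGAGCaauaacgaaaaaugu
miR-335-3p: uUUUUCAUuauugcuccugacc
Mest varied widely within groups: 5.75, 2.96, 1.33 and 0.685 CPM in newborn WT, 10.9, 1.38, 0.922 and 8.98 CPM in P0 ME E10.5. At P28 it was at 2.21, 0, 0.674 and 0 CPM in WT and 0.0415, 0.316, 0.643 and 0.732 CPM in ME E10.5. Its difference with age was -1.90 in WT (SE 1.15, edgeR adjusted p = 0.363) and -3.67 in ME E10.5 (SE 1.24, adjusted p = 0.0398). The latter call held in 2 of 8 refits without 1 library, with adjusted p from 0.0314 to 0.112. It was lost without both P0 libraries numbered 1 (adjusted p = 0.0945) and with no filter on low counts (0.0593). Copg2, on the opposite strand, shares 23.1% of the Mest exon bases.

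**Figure D2:**
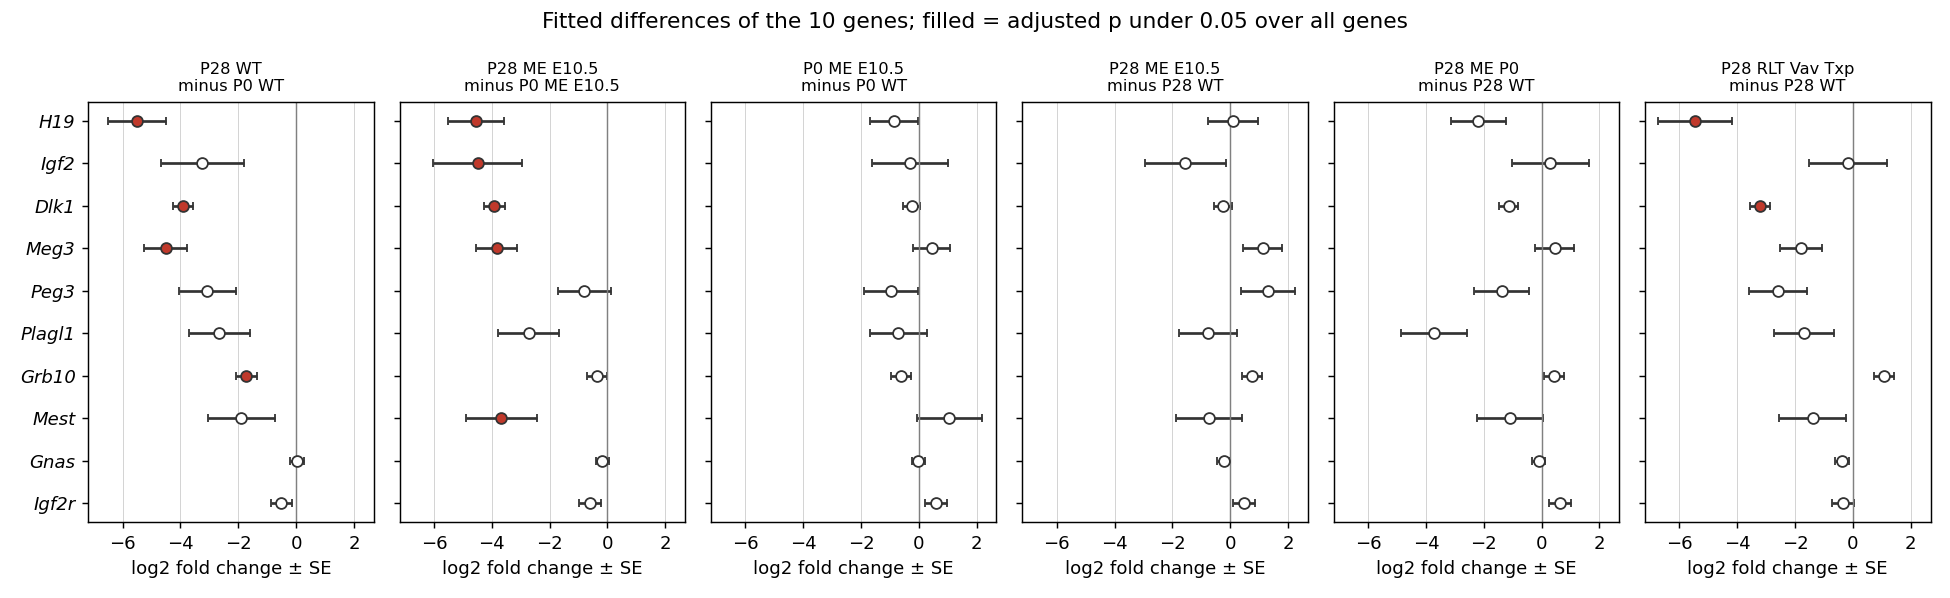
Each panel is 1 comparison, with the fitted log2 fold change of the 10 genes on the horizontal axis and bars of 1 SE; filled points passed an edgeR adjusted p under 0.05 over all genes. The age panels hold 4 and 5 filled points, all below 0, the MLL::ENL panels at P0 and P28 hold none, and the P28 RLT Vav Txp panel holds Dlk1 and H19.

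Genes can be compared roughly per kb of merged exon length, which pools all annotated transcripts of a gene. On that scale the P0 WT means were led by Dlk1 (12.4 CPM per kb), H19 (11.5) and Grb10 (9.71), followed by Igf2r (3.13) and Gnas (2.19). Plagl1 (0.699), Mest (0.680), Peg3 (0.425), Igf2 (0.331) and Meg3 (0.236) were low. For Meg3 the length is 18089 bases from 11 transcripts, and 62.8% of the Igf2 exon bases are shared with Gm49394. In P28 WT the order was Grb10 (2.95), Gnas (2.24), Igf2r (2.19) and Dlk1 (0.817), with H19 at 0.247 CPM per kb. Each gene's libraries overlapped those of the next gene in the order for 8 of 9 neighbouring pairs in P0 WT, all but Gnas and Plagl1, and for 9 of 9 in P28 WT. No test was made between genes.

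Between ME E10.5 and WT, 0 of the 10 growth genes were called at either age. With so few genes, 0 calls cannot be set apart from the shares over all genes given with each count. At P0, 0 of the 10 were called between ME E10.5 and WT, where 0.642% of all genes were called, and 0 had an unadjusted p under 0.05. The fitted differences ran from -0.96 for Peg3 (SE 0.92) to 1.05 for Mest (SE 1.12). DESeq2 called 0 as well. Dlk1 differed by -0.25 (SE 0.31) and H19 by -0.85 (SE 0.83), so that moderate changes of the more variable members would not have been detectable.

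At P28, 0 of the 10 were called between ME E10.5 and WT by edgeR or by DESeq2, against 12.3% of all genes, and 1, Grb10, had an unadjusted p under 0.05. Grb10 means were 45.1 CPM (SD 17.5, n = 4) in ME E10.5 and 26.8 CPM (SD 4.74, n = 4) in WT, a difference of 0.75 (SE 0.35, edgeR adjusted p = 0.166). It passed with only these groups in the fit (adjusted p = 0.0356), a fit that called 6296 of 18491 genes. Dlk1 differed by -0.24 (SE 0.32), and Igf2 by -1.55 (SE 1.39) at levels near the filter's minimum. For the MLL::ENL effect at P28 minus that at P0, 0 members were called by edgeR or DESeq2 and 1, Grb10, had an unadjusted p under 0.05, where 0.720% of all genes were called.

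After induction of MLL::ENL at P0, Dlk1 and Plagl1 values at P28 were lower than in WT but did not pass the test. In P28 ME P0, Dlk1 was at 2.01, 2.36, 2.06 and 1.97 CPM, a narrow range that overlapped P28 WT only through WT library 1. The difference from WT was -1.14 (SE 0.32, edgeR adjusted p = 0.0596). Dlk1 passed without P28 WT library 4 (-1.30, adjusted p = 0.0402) and with DESeq2 (-1.20, adjusted p = 0.00516). Plagl1 was at 0, 0, 0.0782 and 0.181 CPM in P28 ME P0, below all 4 WT libraries, with a difference of -3.72 (SE 1.15, adjusted p = 0.0750, and 0.00584 with DESeq2). In all, 0 of 10 members were called by edgeR, which called 1.57% of all genes. DESeq2 called 2 members, and 598 of 23059 genes higher and 1274 lower. An unadjusted p under 0.05 was found for 3 members, the third being H19 (-2.18, SE 0.96, edgeR adjusted p = 0.202). The share of all genes at that unadjusted threshold was not counted. Igf2r lay above all WT libraries, at 29.3 to 36.9 CPM against 10.9 to 25.6 CPM, and was not called (0.64, edgeR adjusted p = 0.358). The edgeR background of 362 genes was 649 without P28 WT library 4 and fell to between 7 and 10 genes in the other 7 refits without 1 library.

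Between the times of induction, P28 ME P0 minus P28 ME E10.5, 0 members and 0.0477% of all genes were called, with 4 members at an unadjusted p under 0.05 and 0 called by DESeq2. The share of all genes at that unadjusted threshold was not counted. The values of those 4 members were all lower after induction at P0. H19 was at 0.107, 0.0175, 0.328 and 0.0803 CPM (difference -2.28, SE 0.96), Peg3 at 0.143, 0.105, 0.188 and 0.602 CPM (-2.67, SE 0.99), Plagl1 as above (-2.95, SE 1.12), and Dlk1 as above (-0.90, SE 0.32). Their edgeR adjusted p ran from 0.919 to 1. With only these groups in the fit, Dlk1 (adjusted p = 0.0333) and Peg3 (0.0329) passed. That fit called 1147 of 18067 genes.

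P28 RLT Vav Txp had the lowest group means of Dlk1, H19, Meg3, Peg3, Mest, Gnas and Igf2r. Mest and Gnas were called in no comparison of this group. Dlk1 was at 0.584, 0.578, 0.650 and 0.180 CPM, below every library of every other group. Against P28 WT, 2 members were called lower (Dlk1 and H19) and 0 higher, where 1.48% of all genes were called lower and 2.64% higher, or 64.0% of calls higher (53.3% with plain library totals). In log2 terms Dlk1 fell by 3.21 (SE 0.35, edgeR adjusted p = 3.32e-06, 9.27-fold). It was the only member whose P28 RLT Vav Txp libraries all lay below P28 WT, as 4.45% of all genes did. In the same 4 libraries the macrophage, erythroid, mast cell and megakaryocyte sums were high and the LSK sums low, as given above, and their part in the changes of this group was not tested.

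H19 gave 1, 2, 0 and 0 reads in the 4 P28 RLT Vav Txp libraries, 3 reads in all, against 167 in P28 WT, 172 in P28 ME E10.5 and 32 in P28 ME P0. The ratio of P28 WT to P28 RLT Vav Txp, scaled to library size, was 62.6 with an exact 95% counting interval of 21.1 to 307, which covers counting error only. For P28 ME E10.5 it was 57.8 (19.5 to 283) and for P28 ME P0 11.3 (3.52 to 57.5). The edgeR difference from WT was called (adjusted p = 0.0140), but 148 of the 167 WT reads came from library 3. Without that library the adjusted p was 0.158, and without P28 RLT Vav Txp library 4 it was 0.0544.

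Against P28 ME E10.5, which shares the time of induction, 4 members were called lower and 0 higher, where 9.38% of all genes were called lower and 8.50% higher. The fall of Dlk1 was -2.97 (SE 0.35, edgeR adjusted p = 4.51e-06). H19 (adjusted p = 0.00542) and Meg3 (log2 -2.93, SE 0.72, adjusted p = 0.00721) were also called. Meg3 gave 0.0438, 0.0275, 0.0464 and 0.0899 CPM in P28 RLT Vav Txp, from 2 to 5 reads a library. Peg3, at 0.204, 0.124, 0.0464 and 0.0539 CPM, was called at -3.90 (SE 1.05, adjusted p = 0.0126). The Peg3 call was lost without P28 ME E10.5 library 2 (adjusted p = 0.0555) or P28 RLT Vav Txp library 4 (0.0509).

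Against P28 ME P0, 2 members were called lower and 0 higher, where 4.90% of all genes were called lower and 6.75% higher. In log2 terms Dlk1 fell by 2.07 (SE 0.35, edgeR adjusted p = 0.000377). Meg3 was called at -2.25 (SE 0.71, adjusted p = 0.0402), a call kept in 1 of 8 refits without 1 library. These 3 comparisons share the P28 RLT Vav Txp libraries. Grb10 gave higher values instead: at 57.1, 64.4, 61.3 and 45.7 CPM it lay above all P28 WT libraries, with a difference of 1.09 (SE 0.35, edgeR adjusted p = 0.0856, and 0.0367 with DESeq2). With only the compared groups in the fit Grb10 was called higher than in WT (adjusted p = 0.00210) and than in ME P0 (0.68, adjusted p = 0.0248). That fit called 828 of 19173 genes higher against WT and 3039 of 18722 against ME P0. Igf2r was at 20.4, 10.1, 21.5 and 12.2 CPM, below every library of the other two P28 ME groups, with differences of -0.83 from ME E10.5 (adjusted p = 0.131) and -0.99 from ME P0 (0.0919). Both were called with only the compared groups in the fit (-0.76, adjusted p = 0.0397, and -0.95, adjusted p = 0.0131). The genes called lower were then 2670 of 18808 and 2114 of 18722.

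**Figure D3:**
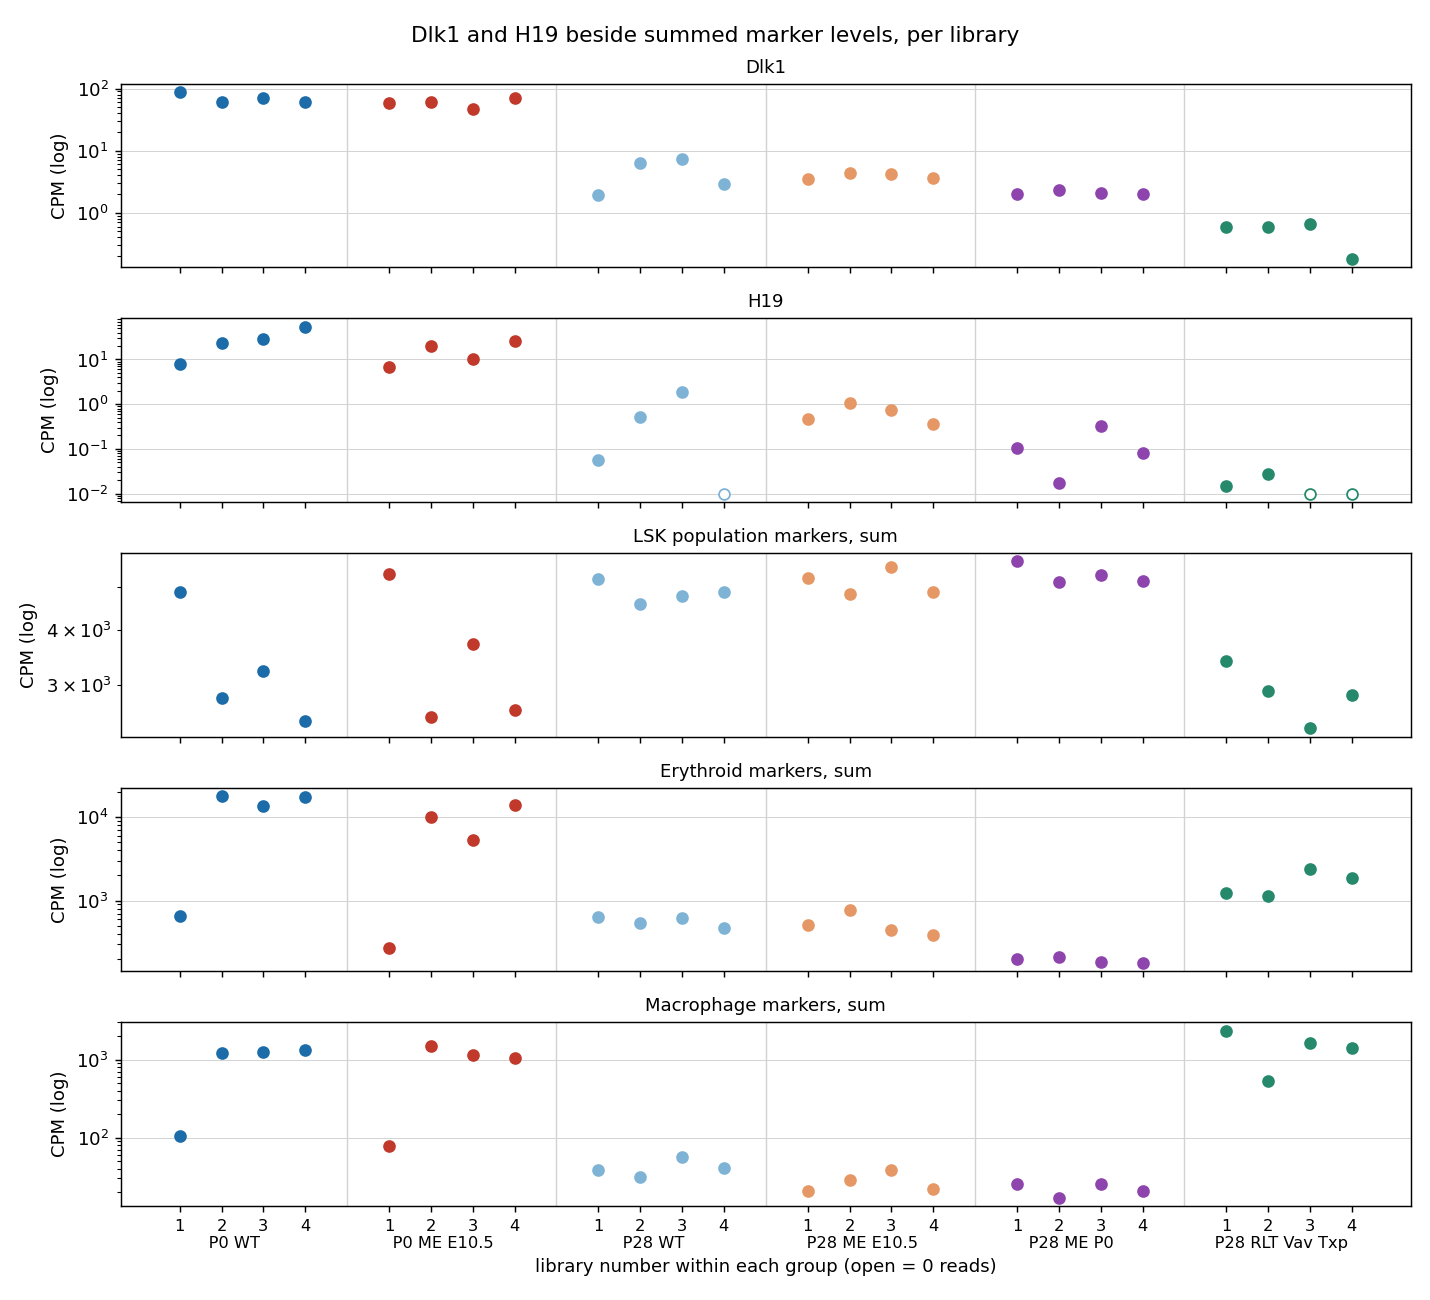
Rows show, for each of the 24 libraries, Dlk1, H19 and the summed LSK, erythroid and macrophage markers in CPM on log axes; open points have 0 reads. Dlk1 is high in all 8 P0 libraries, the 2 numbered 1 included, whose erythroid and macrophage sums are low, and is lowest in the P28 RLT Vav Txp libraries, whose macrophage sums are 537 to 2350 CPM.

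Of 34 other imprinted genes tested with age, 2 were called higher and 2 lower in WT, and 2 higher and 6 lower in ME E10.5, with medians of -0.40 and -0.35. The shares of all genes called, given above, were 3.12% and 4.56% in WT and 9.79% and 8.45% in ME E10.5. Cdkn1c, a maternally expressed cell cycle inhibitor of quiescent stem cells, fell by 0.93 in WT, in log2 terms (edgeR adjusted p = 0.00170) and by 1.11 in ME E10.5 (0.000152). Its libraries ran from 28.5 to 45.8 CPM at P0 and from 16.4 to 20.1 CPM in these P28 groups. Mcts2, a retrocopy whose reads can be shared with its parent gene, fell by 2.28 (adjusted p = 0.0182) and 4.18 (0.000113). Sgce rose by 0.52 and 0.51 (adjusted p = 0.0451 and 0.0274), and Ppp1r9a by 0.93 in WT (0.00587), both neighbours in 1 imprinted cluster. The Sgce calls held in 7 of 16 refits in WT, with adjusted p up to 0.251, and in 9 of 16 in ME E10.5, with adjusted p up to 0.0948. Kcnq1ot1, the noncoding RNA antisense to Kcnq1, was the only one called for the difference between ages in the MLL::ENL effect, at -2.85 (adjusted p = 0.00155). Its P28 levels were 24.3 to 37.4 CPM in WT, 3.11 to 6.55 CPM in ME E10.5, 5.24 to 8.71 CPM in ME P0 and 9.11 to 25.1 CPM in RLT Vav Txp.

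Of 9 tested neighbours of the growth genes, 2 were called lower with age in WT (Rian and Cobl) and 3 in ME E10.5 (Rtl1, Rian and Ddc). The Cobl call (adjusted p = 0.0497) came from 20.3 CPM in P0 WT library 1 and 1.90 CPM in library 3, with 0 reads in the other 2, and held in 2 of 13 refits. Ddc, the neighbour of Grb10, fell by 2.24 in ME E10.5 (adjusted p = 0.0264).

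Among 14 tested genes of IGF signalling, 3 were called lower with age in WT and 4 in ME E10.5, with 0 and 1 called higher. Igf1, the postnatal counterpart of Igf2, was at 21.7, 48.6, 33.5 and 39.2 CPM in newborn WT against 7.69, 8.01, 13.5 and 6.60 CPM in P28 WT. The log2 level fell by 2.00 (SE 0.33, edgeR adjusted p = 0.000367) and by 2.53 in ME E10.5 (SE 0.34, adjusted p = 2.04e-05). Igfbp1, an IGF binding protein of hepatocytes, was read in all 8 P0 libraries at 0.290 to 5.04 CPM and gave 0 reads in the 8 P28 WT and ME E10.5 libraries. Stc1, an inhibitor of the protease that frees IGF from its binding proteins, fell in both (adjusted p = 0.00240 and 0.0232). Insr fell by 1.01 and Igfbp4 rose by 0.88 in ME E10.5 (adjusted p = 0.00604 and 0.000868). In P28 RLT Vav Txp, Igf1 went the other way from Dlk1, at 63.2, 18.6, 59.0 and 63.2 CPM, and was 2.51 higher than in WT (SE 0.34, adjusted p = 4.89e-05). Its lowest library there, 2, also had the lowest macrophage sum, 537 CPM, and the part of macrophage RNA in this rise was not tested.

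All 6 genes of the fetal RNA-binding axis that acts on Igf2 messenger RNA were called lower with age in both genotypes, with medians of -3.46 and -3.76. Igf2bp3, which binds Igf2 messenger RNA, was at 100, 95.8, 72.8 and 98.8 CPM in newborn WT, 7.32, 7.46, 12.4 and 7.70 CPM in P28 WT and 0.555, 0.661, 1.53 and 0.378 CPM in P28 RLT Vav Txp. Like Dlk1, it was lower in P28 RLT Vav Txp than in P28 WT, by 3.51 (SE 0.33, edgeR adjusted p = 3.07e-07). Of the 6 genes, 3 were called lower in that comparison (Igf2bp3, Igf2bp2 and Hmga2) and 0 higher, where 1.48% of all genes were called lower and 2.64% higher. Lin28b, which blocks the maturation of let-7 microRNAs, fell by 3.53 in WT and 4.27 in ME E10.5 (adjusted p = 0.00593 and 0.000851). Of 13 tested genes that maintain or read imprints, 1 was called higher and 1 lower with age in WT, and 5 higher and 0 lower in ME E10.5. In P28 ME E10.5 against WT, 7 were called higher, among them Dnmt1, the maintenance methyltransferase (1.56), and Smchd1 (1.46). Of all genes, 7.82% were called higher there and 4.44% lower, so that 63.8% of calls were higher, and 33.3% with plain library totals. With those totals 4 of the 13 were called higher and 0 lower.

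**Figure D4:**
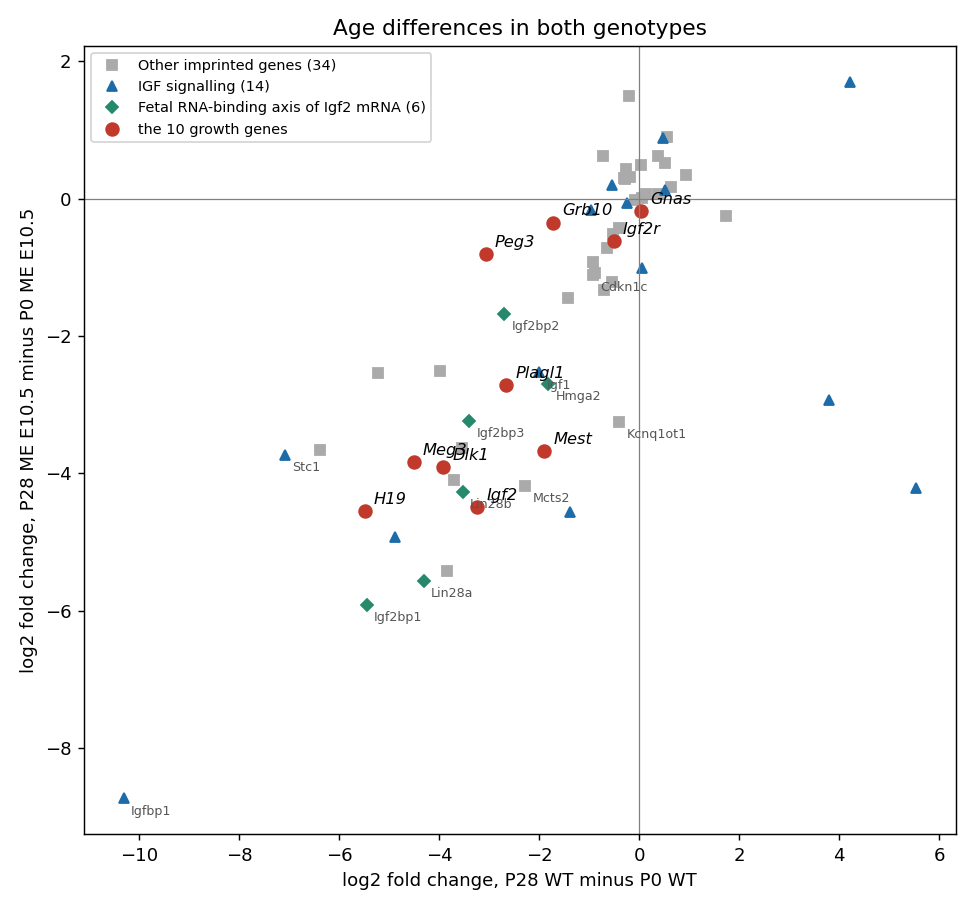
Each point is a gene, with its log2 fold change from P0 to P28 in WT on the horizontal axis and in ME E10.5 on the vertical axis; circles are the 10 growth genes and other symbols the lists in the key. The growth genes run from Gnas near 0 on both axes to H19 at -5.50 and -4.55, and the 6 genes of the RNA-binding axis lie among the lower ones.

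Over the 24 libraries, the genes whose log2 CPM was most like a member's were taken from the 11291 whose mean log2 CPM was 1 or more, as a description in which P0 and P28 libraries form separate clusters. For Dlk1 they were Igf2bp3 (Pearson r = 0.94), Rap2c (0.93) and Tnni2 (0.92), and for Meg3 Igf2bp2 (0.89), Tnni2 (0.89) and Ahr (0.89). H19 was most like Il1r2 (0.92), Hopx (0.92) and Rsad2 (0.90).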

How the data were processed

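RNA from 24 sorted mouse libraries was extracted with Qiagen RNeasy Plus and made into libraries with Clontech SMARTer chemistry, per the labels' protocols. The authors deposited raw counts per Ensembl gene, whole numbers with no scaling. STAR 2.7.9a, Subread, featureCounts 2.0.3 and GRCm38 are named in the submitters' processing notes; strand setting, multi-match handling and annotation release are not given in the sources used here. The table held 55774 rows, of which 287 identical repeats were dropped. Genes were filtered with filterByExpr (edgeR 4.0.16, R 4.3.3, minimum count 10), scaled by TMM (factors 0.82 to 1.08) and fitted with the robust quasi-likelihood model on all 24 libraries (18 residual degrees of freedom) in 10 comparisons. DESeq2 1.42.0 was an alternative, and the others are in the closing section. On data simulated for the P28 WT and P0 WT comparison (22485 genes), 37 of 66 genes changed 8-fold and 15 of 67 changed 2-fold were called. Gene models came from GENCODE M21, sequences from RefSeq tables, where 9 of the 10 members have promoter entries (19 start sites). Figures used matplotlib 3.10.9. All 10 members are named in every comparison, and from each list the called genes, or the 4 with the smallest p where over 5 were called. Leaving out both P0 libraries numbered 1 was chosen after seeing the data. The members and lists were chosen with earlier results of these data known. The genes most like Igf2r across libraries are not reported here.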

Additional observations from a re-analysis of the deposited data

Results flagged for a closer look

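In 5 of the 60 sets of 4 libraries (10 genes in 6 groups), 1 library stood far from the other 3 by Dixon's test, and chance flags about 1 in 20 such sets. Igf2 was at 0.697 CPM in P28 RLT Vav Txp library 3, with the other 3 at 0 to 0.0292 CPM. Plagl1 was high in the same library, at 0.906 CPM against 0.0180 to 0.138 CPM. Dlk1 was low in P28 RLT Vav Txp library 4, at 0.180 CPM against 0.578 to 0.650 CPM. Meg3 was low in P0 ME E10.5 library 4, at 1.23 CPM against 6.81 to 7.62 CPM. Peg3 was high in P28 ME P0 library 4, at 0.602 CPM against 0.105 to 0.188 CPM.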

How the results depend on the processing

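Over all alternatives and refits without 1 library, the called member differences kept their direction, with 215 refits on the same side of the threshold and 31 no longer past it. Dlk1 stayed called in every refit of the 5 comparisons in which it was called, and Meg3 in every refit of both age comparisons. Leaving out both P0 libraries numbered 1 left 3 members called with age in ME E10.5. With only the compared groups in the fit, 1 member (Grb10) was called for P28 ME E10.5 against WT, 2 for P28 ME P0 against WT and 2 for P28 ME P0 against P28 ME E10.5. In the same order, that fit called 6296 of 18491, 5196 of 18601 and 1147 of 18067 genes. That fit also called Grb10 (higher) for P28 RLT Vav Txp against WT, Igf2r (lower) against P28 ME E10.5, and both against P28 ME P0, while H19 against WT and Meg3 against P28 ME P0 were left untested by its filter. P28 ME P0 against WT gave 1 with RLE factors and 2 with DESeq2. Of 23059 genes, RLE factors gave 62 higher and 387 lower there, and DESeq2 598 higher and 1274 lower. With no filter on low counts 1 was called for P28 RLT Vav Txp against WT and 1 against P28 ME P0. Without 1 library the members called were 3 to 4 with age in ME E10.5, 0 to 1 for the difference between ages in the MLL::ENL effect, 0 to 1 for P28 ME P0 against WT, and 1 to 2 for P28 RLT Vav Txp against WT and against P28 ME P0. In the same order of the comparisons as the report, all genes called ran over the alternatives from 481 to 2797 (1771 as reported), 3150 to 5515 (4206), 5 to 802 (148), 1767 to 6296 (2827), 41 to 782 (166), 206 to 5196 (362), 11 to 1147 (11), 722 to 1644 (950), 2893 to 5946 (4122) and 1846 to 5153 (2687), the extremes coming mostly from the fit of the compared groups alone, the unfiltered table and DESeq2. Without 1 library they ran, in the same order, from 1137 to 2473, 2687 to 4735, 104 to 575, 893 to 2723, 11 to 1653, 7 to 649, 4 to 15, 635 to 859, 2061 to 5212 and 1288 to 3981. The 1653 came without P0 WT library 4, and the 11 without P28 ME E10.5 library 1. The share of calls that were higher went from 56.8% to 67.2% with plain library totals for P0 ME E10.5 against WT, from 65.1% to 11.0% for the difference between ages in the MLL::ENL effect, and from 31.5% to 14.4% for P28 ME P0 against WT. With the replicate number as a block in the 20 numbered libraries, 2 members were called for P28 ME P0 against WT, and also 2 in the same libraries with no block, while Mest with age in ME E10.5 was no longer called (adjusted p = 0.0904). Of 40 pairs of same-numbered libraries, 14 deviated together with r over 0.1 and the others did not (median r 0.030, from -0.394 to 0.660), so the numbers were not taken as pairs. With plain library totals the median log2 difference of all genes moved from -0.07 to 0.08 for WT with age, from -0.10 to -0.23 for P28 ME E10.5 against WT and from -0.04 to -0.24 for the difference between ages in the MLL::ENL effect. Depth limits H19, Igf2, Meg3, Peg3, Plagl1 and Mest at P28, where many libraries held under 50 reads.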

Other observations

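Among the listed genes, Gatm, Slc38a4 and Igfbp4 were also called in P28 RLT Vav Txp against each of the other P28 groups. Gatm, the enzyme of the first step of creatine synthesis, imprinted in placenta, was at 156, 159, 131 and 172 CPM there and at 55.0 to 74.3 CPM in P28 WT (log2 1.23, SE 0.30, edgeR adjusted p = 0.0162). Slc38a4, a paternally expressed amino acid transporter, gave 0 reads in all 4 libraries. Its log2 differences were -6.11 from P28 WT, -5.63 from P28 ME E10.5 and -4.98 from P28 ME P0. It was also called lower with age in ME E10.5 (-4.09). Igfbp4, an IGF binding protein, was at 374, 232, 200 and 237 CPM against 373 to 499 CPM in P28 WT (-0.74, SE 0.17, adjusted p = 0.00903). Igf1r, the receptor of IGF1 and IGF2, was read at 20.8 to 54.5 CPM in all 24 libraries.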
